A study of Mus musculus with 6 samples.

Results

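The EGF receptor family and its ligands were followed as 10 genes of the deposited expression table, chosen by symbol: the receptors Egfr, Erbb2, Erbb3 and Erbb4, and the ligands Hbegf, Tgfa, Areg, Ereg, Btc and Nrg1. Each symbol matched 1 row, so the family makes up 10 of the 54532 gene rows. RNA was sequenced from neurospheres, free-floating clusters of cells rich in neural progenitors, cultured from hippocampi of newborn (postnatal day 0) C57BL/6 mice. The FGF13cko group (3 libraries, genotype hGFAPCre+, Fgf13 flox/y) carries a floxed Fgf13 gene on its single X chromosome, and the CTRL group (3 libraries, hGFAPCre+, Fgf13+/y) an intact one. Both groups carry the same Cre transgene, driven by the human GFAP promoter, so deletion can take place only in cells in which that promoter has been active. The cells of 1 mouse filled 2 wells, the medium held FGF-2 and EGF at 20 ng/ml each, and spheres were collected on day 7. Nothing in the labels ties a library to a mouse of its own, so p-values measure the spread between these libraries, which may be technical.

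The 4 receptors are membrane tyrosine kinases that work in pairs. EGFR binds EGF, TGF-alpha, amphiregulin, epiregulin, betacellulin and HB-EGF. ERBB2 has no ligand of its own and acts as a partner of the others, ERBB3 and ERBB4 bind neuregulins, and the kinase of ERBB3 is weak. The ligands are made as membrane proteins and are cut free by proteases at the cell surface. Neural stem and progenitor cells divide in neurosphere culture in response to EGF, which is supplied here beside FGF-2. ERBB4 is known from inhibitory neurons and ERBB3 from the oligodendrocyte and Schwann cell lineages.

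Values are normalized counts, reads per gene divided by a library's size factor. Reads in genes ranged from 24015697 to 24531400 in FGF13cko and from 22191718 to 24261454 in CTRL. The targeted gene Fgf13 had 201, 239 and 332 normalized counts in FGF13cko replicates 1, 2 and 3 and 480, 651 and 276 in CTRL replicates 1, 2 and 3. CTRL 3 lay inside the FGF13cko range, and the log2 change, -0.81 (SE 0.33), missed the threshold (adjusted p = 0.134 in limma; 2-sided exact permutation p = 0.2, with 0.1 the lowest that groups of 3 can reach). Without CTRL 3 it was -1.15 and passed (adjusted p = 0.0108 in limma). Both replicate 3 libraries stood apart from the others of their groups on the second principal component (31.3% of the variance), with mitochondrially encoded genes at 4.05% of counts in FGF13cko 3 and 4.14% in CTRL 3, against 2.28% to 2.36% in the other FGF13cko and 1.46% to 1.48% in the other CTRL libraries. The progenitor markers Sox2, Nes and Vim were present in every library. Sox2, a transcription factor of neural stem cells, had 7122, 6774 and 5923 normalized counts in FGF13cko and 11753, 10573 and 11791 in CTRL, without overlap, and fell by 0.79 on the log2 scale (SE 0.15, adjusted p = 0.0152 in limma). Nes and Vim, which encode the intermediate filament proteins nestin and vimentin, lay the other way and did not pass. Nes had 33400.1, 30262 and 18858 normalized counts in FGF13cko and 16604, 18888 and 4155 in CTRL, with overlap, a log2 change of 1.29 (adjusted p = 0.149 in limma, 0.00609 with the replicate number as a block). Vim had 81923, 82469.8 and 63336 in FGF13cko and 52152, 54097 and 28349 in CTRL, without overlap, a log2 change of 0.81 (adjusted p = 0.115 in limma, 0.0188 with the block). Results that rest on the replicate 3 libraries are given with and without them.

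Start regions of 3 genes are shown for orientation, those of Areg, the member with the largest fitted change, Tgfa, the ligand with the smallest, and Egfr, the most abundant receptor. RefSeq (GRCm38.p6) gave a window of 300 bases for 6 of the 10 members, from 250 bases before the gene start to 50 after it. Capitals mark 3 motifs searched on both strands: the cAMP response element TGACGTCA, the TATA box TATAAA and the GC box GGGCGG, which do not overlap in these windows.
Areg, chr5:91139349-91139648, plus strand: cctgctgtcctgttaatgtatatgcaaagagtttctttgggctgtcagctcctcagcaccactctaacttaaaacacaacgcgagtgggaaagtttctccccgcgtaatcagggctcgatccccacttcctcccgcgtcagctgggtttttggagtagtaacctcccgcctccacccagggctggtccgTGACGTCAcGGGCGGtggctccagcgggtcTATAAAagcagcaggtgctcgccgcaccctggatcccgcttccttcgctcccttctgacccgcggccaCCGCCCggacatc
Tgfa, chr6:86194972-86195271, plus strand: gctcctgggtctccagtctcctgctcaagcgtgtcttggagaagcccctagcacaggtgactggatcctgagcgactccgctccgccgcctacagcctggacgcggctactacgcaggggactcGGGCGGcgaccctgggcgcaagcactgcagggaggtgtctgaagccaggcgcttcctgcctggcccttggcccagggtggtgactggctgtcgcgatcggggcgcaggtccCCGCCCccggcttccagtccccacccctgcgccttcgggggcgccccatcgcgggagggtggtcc
Egfr, chr11:16751953-16752252, plus strand: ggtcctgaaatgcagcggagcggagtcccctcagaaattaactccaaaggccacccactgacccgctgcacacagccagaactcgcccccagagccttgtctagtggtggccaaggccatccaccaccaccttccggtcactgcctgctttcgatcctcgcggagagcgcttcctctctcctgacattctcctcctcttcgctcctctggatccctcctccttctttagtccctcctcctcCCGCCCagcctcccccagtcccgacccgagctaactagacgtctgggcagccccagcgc
The Areg window holds the cAMP response element at bases -61 to -54 from the start and a TATA box at -31 to -26, beside GC boxes at -52 to -47 and 37 to 42. The windows of Tgfa and Egfr hold GC boxes only, at -126 to -121 and -15 to -10 for Tgfa and at -9 to -4 for Egfr. Of the 6 windows, 1 held the cAMP response element, 1 the TATA box and 3 a GC box. Over 32851 start windows in the RefSeq table the shares were 1.79%, 13.6% and 35.7%. GC content was 59.3% for Areg, 70.7% for Tgfa and 62.3% for Egfr. These are matches of letters and were not tested for binding.

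Members are listed in the order of their mean level per exon length over all 6 libraries. Egfr was the most abundant member per exon length. Its level averaged 530 ± 204 normalized counts per kb of exon in FGF13cko and 585 ± 203 in CTRL (SD, n = 3 each), on the combined exons of GENCODE M21. Next came Hbegf (338 ± 37.2 in FGF13cko and 176 ± 84.5 in CTRL), Tgfa (121 ± 4.26 in FGF13cko and 128 ± 1.02 in CTRL), Erbb2 (74.6 ± 10.5 in FGF13cko and 94.6 ± 13.9 in CTRL) and Erbb4 (47.9 ± 15.6 in FGF13cko and 56.3 ± 15.2 in CTRL). The lower end held Areg (75.1 ± 12.4 in FGF13cko and 19.7 ± 14.98 in CTRL), Nrg1 (33.8 ± 6.50 in FGF13cko and 19.3 ± 1.51 in CTRL), Btc (7.38 ± 0.468 in FGF13cko and 9.25 ± 5.36 in CTRL), Erbb3 (4.47 ± 1.54 in FGF13cko and 6.89 ± 1.76 in CTRL) and Ereg (1.26 ± 0.4998 in FGF13cko and 0.326 ± 0.140 in CTRL). In FGF13cko alone, the mean of Areg lay above that of Erbb4 and just above that of Erbb2. Combined exons overstate the length of a gene with many isoforms, such as Nrg1, and so understate its level.

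The order was firm at some steps and not at others. Over all 6 libraries, Egfr exceeded Hbegf in 6, although the lowest Egfr level per kb (305, FGF13cko 3) lay below the highest of Hbegf (368, FGF13cko 2). Tgfa lay wholly above Erbb2, Nrg1 wholly above Btc, and Erbb3 wholly above Ereg. Erbb4 exceeded Areg in 3 libraries only, all of them CTRL, so these neighbours had no common order.

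**Figure D1:**
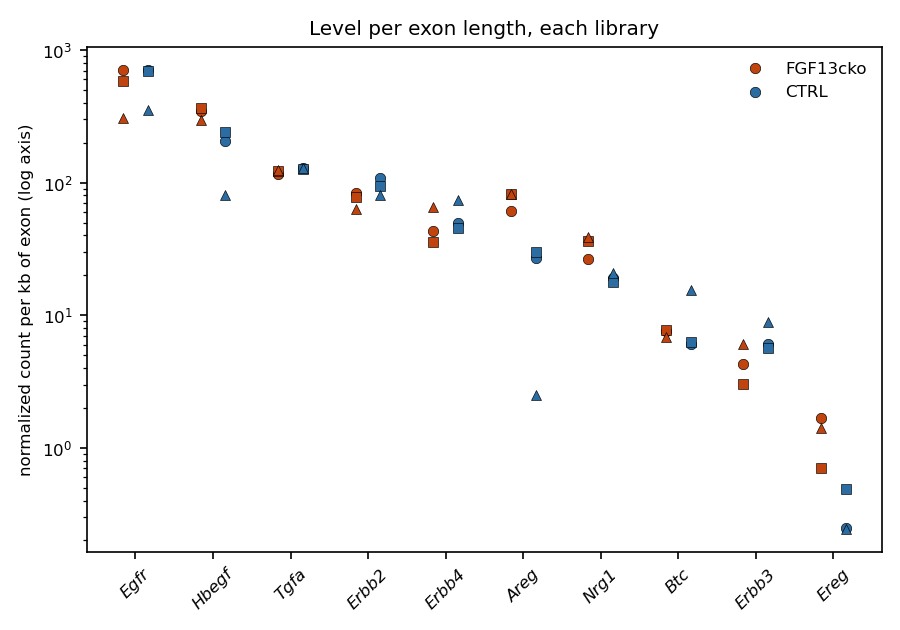
Level of each member in every library, as normalized counts per kb of exon on a log axis, with FGF13cko left of CTRL and circles, squares and triangles for replicates 1, 2 and 3. Egfr tops the order in all libraries, and the single CTRL value of Areg far below the rest is CTRL 3 at 2.50 per kb.

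None of the 4 receptors passed the test between the genotypes. Across the transcriptome 14.6% of the 16852 tested genes passed (limma, adjusted p under 0.05, adjusted over all genes with a mean of at least 10), 7.55% higher and 7.08% lower in FGF13cko. In bulk RNA, fewer cells of a type and less RNA per cell cannot be told apart, here and in every result that follows.

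Egfr (ENSMUSG00000020122, chr11:16752203-16918158, plus strand), the receptor for the EGF in the medium, had 7977, 6573 and 3460 normalized counts in FGF13cko 1, 2 and 3 and 8021, 7868 and 3973 in CTRL 1, 2 and 3. The groups overlapped, and both replicate 3 libraries lay far below the others. The log2 change was -0.16 (95% interval -1.01 to 0.70, limma adjusted p = 0.807). Within same-numbered libraries the differences all lay below 0, at -0.01, -0.26 and -0.20 on the log2 scale, and with the replicate number as a block the interval was -0.44 to 0.13. The 3 genes most like Egfr over the 6 libraries, by Pearson correlation of log2 values among 12121 genes, were Bptf, a chromatin remodelling subunit (r = 0.999), Srsf11, a splicing factor (r = 0.998), and Cdc42se2, an effector of the small GTPase Cdc42 (r = 0.997). All 3 were lowest in the replicate 3 libraries of both groups, and 254 genes had an r of at least 0.95, so the likeness is shared widely.

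Erbb2, the partner receptor without a ligand, had 433, 405 and 328 normalized counts in FGF13cko and 566, 492 and 421 in CTRL. FGF13cko 1 lay above CTRL 3, so the groups overlapped, while FGF13cko was lower in each of the 3 same-numbered pairs. Erbb2 shares this with Egfr, Erbb3, Erbb4 and Tgfa, 5 of the 9 tested members, where 29.8% of all tested genes were lower in all 3 pairs. Its fitted change was -0.34 (SE 0.18, 95% interval -0.76 to 0.08, limma adjusted p = 0.234). Its exons share 9 bases with Mien1 on the other strand. Its nearest patterns were those of Adam9, a metalloprotease (r = 0.998), Tob2 (r = 0.995), an antiproliferative protein, and Fbxl12 (r = 0.993), an F-box protein. In all, 262 genes had an r of at least 0.95 with Erbb2.

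Erbb3, a neuregulin receptor, was low, at 25.6, 18.3 and 36.7 normalized counts in FGF13cko and 36.6, 34.2 and 53.6 in CTRL. The value of FGF13cko 3 just exceeded those of CTRL 1 and 2. The log2 change was -0.63 (SE 0.35, 95% interval -1.44 to 0.17, limma adjusted p = 0.253). The oligodendrocyte lineage markers, whose cells carry this receptor, had 3 of 12 members lower and none higher, namely Sox10, Gpr17 and Myrf, while 10 of the 12 had a log2 change below 0 (median -0.89). With the replicate block 6 passed as lower and none as higher, and without both replicate 3 libraries 7 as lower and 1 as higher. Their summed level was 61457 to 77344 normalized counts in FGF13cko and 56752 to 77196 in CTRL, which overlap. Most of that sum came from Olig1 (mean 40384 in FGF13cko and 32365 in CTRL) and Olig2 (20938 in FGF13cko and 18634 in CTRL), transcription factors of the lineage, and neither passed. Of 8 Schwann and neural crest markers, 5 could be tested, 1 was higher and 1 lower (2 higher and 1 lower with the block, 1 and 1 without both replicate 3 libraries), and Foxd3 was at 0 in all 6 libraries. Their summed level, which includes Erbb3 itself and Sox10, was 2599 to 4290 in FGF13cko and 3659 to 6614 in CTRL. The part of these cells in the Erbb3 level was not tested. Beside both marker counts, 7.08% of all tested genes were lower and 7.55% higher with genotype alone. With the block 13.9% were lower and 16.2% higher, and without both replicate 3 libraries 18.4% and 18.9%. The patterns most like Erbb3 were Brk1 (r = 0.998), a subunit of an actin regulator, Psenen (r = 0.988), a subunit of gamma-secretase, and Ethe1 (r = 0.985), a mitochondrial sulfur dioxygenase. An r of at least 0.95 was reached by 45 genes. Correlation takes no account of the size of the differences, and Brk1 ran only from 2745 to 3781 normalized counts.

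Erbb4, the other neuregulin receptor, had 531, 438 and 808 normalized counts in FGF13cko and 613, 563 and 909 in CTRL. As for Erbb3, and opposite to Egfr, the replicate 3 library was the highest of each group. The log2 change was -0.25 (SE 0.27, 95% interval -0.87 to 0.38, limma adjusted p = 0.566), and FGF13cko was again lower in all 3 same-numbered pairs. The size of the change rested on single libraries, at -0.04 without CTRL 3, -0.05 without FGF13cko 2 and -0.49 without FGF13cko 3. Markers of the GABAergic lineage, in which Erbb4 is known to act, had 6 of 11 tested members higher and none lower (9 higher with the block, 8 without both replicate 3 libraries), with a summed level of 3295 to 6945 in FGF13cko and 1967 to 2767 in CTRL. The part of these cells in the Erbb4 level was not tested. Beside the marker counts, 7.55% of all tested genes were higher with genotype alone. With the block 16.2% were, and without both replicate 3 libraries 18.9%. The nearest patterns were Slu7 (r = 0.990), a splicing factor, Hmgn3 (r = 0.985), a nucleosome-binding protein, and Sod1 (r = 0.984), superoxide dismutase. With Erbb4, 41 genes had an r of at least 0.95.

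Counted per kb of exon, Egfr made up 84.4%, 83.3% and 69.4% of the receptor sum in FGF13cko 1, 2 and 3 and 81.2%, 82.7% and 68.2% in CTRL 1, 2 and 3. The share differed more between replicate 3 and the other libraries than between the genotypes. Erbb4 held 14.9% in FGF13cko 3 and 14.3% in CTRL 3, against 5.09% to 5.15% in the other FGF13cko and 5.42% to 5.69% in the other CTRL libraries.

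Among the ligands, Nrg1 rose, and Areg and Hbegf were higher in every FGF13cko library than in any CTRL library but passed the test in some fits only. Thus 1 of 9 tested members passed in the fit with genotype alone, against 14.6% of all genes. The median log2 change of the 9 tested members was -0.16, and that of all tested genes 0.02. Of the tested members, 3 lay higher in FGF13cko without overlap (Nrg1, Areg, Hbegf), where 20.6% of all tested genes did, and 1 lower (Tgfa), where 18.7% did (39.4% in either direction). With the replicate block 3 of 9 passed, all higher, against 30.0% of all genes (16.2% higher). A count of 3 among 9 is near that background. The same 3 passed without CTRL 3, where 26.4% of all genes did (13.4% higher), and without both replicate 3 libraries, where 37.3% did (18.9% higher and 18.4% lower). In the authors' deposited table, of the 9 members with an adjusted p, 3 were under 0.05, against 16.7% of all genes with one. For the 4 receptors the authors' deposited table lists log2 changes of -0.52 to -0.13 with adjusted p of 0.308 to 0.849. For Tgfa and Btc the authors' deposited table lists -0.08 (adjusted p 0.799) and -0.27 (adjusted p 0.719).

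**Figure D2:**
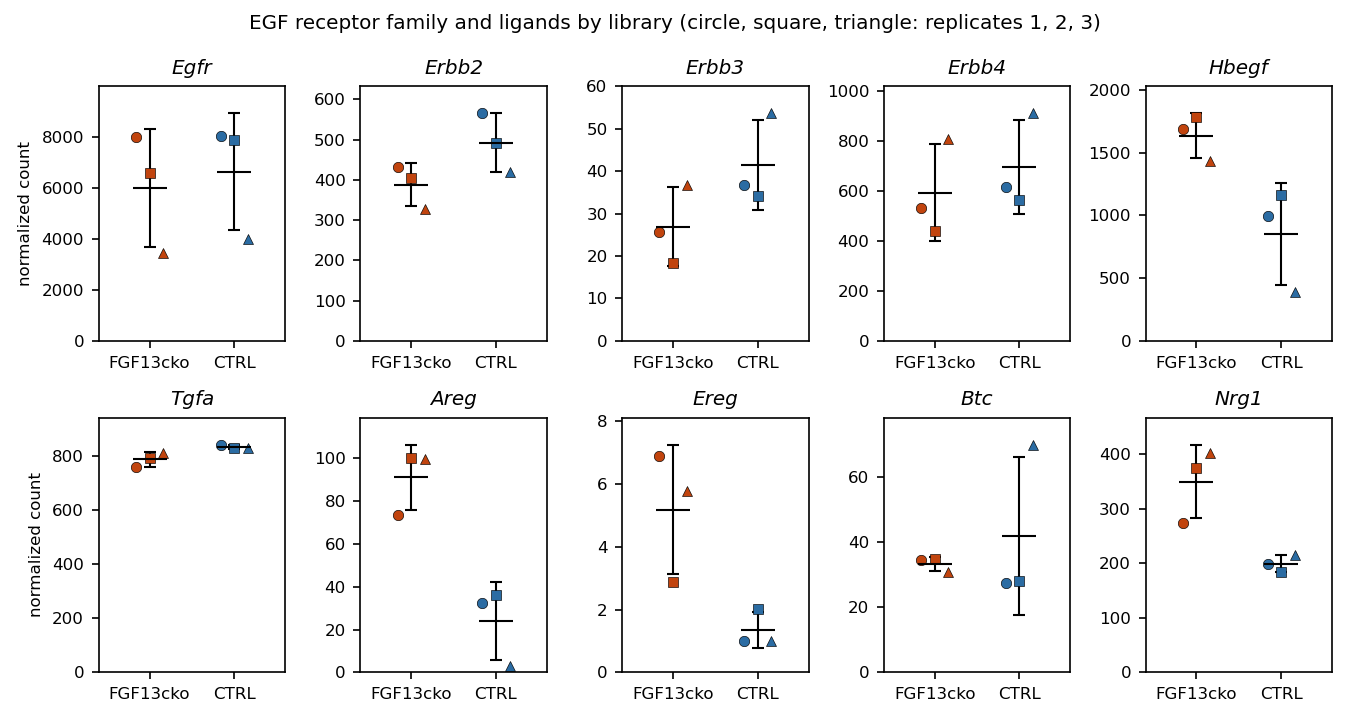
Normalized counts of the 10 members in every library, FGF13cko left of CTRL in each panel, with the mean and SD of 3 libraries in black and circles, squares and triangles for replicates 1, 2 and 3. Hbegf, Areg and Nrg1 separate the groups, while Egfr is low and Erbb4 high in both replicate 3 libraries.

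Nrg1 (ENSMUSG00000062991, chr8:31814551-32884029, minus strand) encodes neuregulin 1, the ligand of ERBB3 and ERBB4. It had 273, 374 and 401 normalized counts in FGF13cko and 198, 184 and 215 in CTRL. All FGF13cko libraries lay above all CTRL libraries, which were close together. The means were 349.6 ± 67.3 in FGF13cko and 199 ± 15.6 in CTRL (SD, n = 3 each), a 1.75-fold ratio, with a fitted change of 0.79 on the log2 scale (SE 0.20, 95% interval 0.34 to 1.24, adjusted p = 0.0337 in limma). The call was lost without FGF13cko 2 (limma adjusted p = 0.145), FGF13cko 3 (0.106), CTRL 1 (0.106) or CTRL 2 (0.0925), with log2 changes of 0.68 to 0.79, and it held without FGF13cko 1 or CTRL 3. The authors' deposited table lists a log2 change of 0.77 (SE 0.22) with an adjusted p of 0.00588. The exons share 482 bases with Gm26578 on the other strand, a gene with a mean of 13.1 normalized counts, and the kit does not mark strand. Counts over the whole gene do not tell its isoforms apart.

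Areg (ENSMUSG00000029378, chr5:91139599-91148432, plus strand) encodes amphiregulin, an EGFR ligand, and its start region with the cAMP response element is printed above. It had 73.8, 100.3 and 99.5 normalized counts in FGF13cko and 32.5, 36.2 and 3.03 in CTRL. CTRL 3 rested on 3 reads and lay far below the other CTRL libraries, and no value of the groups overlapped. The means were 91.2 ± 15.1 in FGF13cko and 23.9 ± 18.2 in CTRL, a 3.81-fold ratio. The log2 change was 2.41 (SE 0.78, 95% interval 0.61 to 4.22) and missed the threshold (limma adjusted p = 0.0765), and it passed with the replicate block (limma adjusted p = 0.0149). Without CTRL 3 it was 1.37 and passed (limma adjusted p = 0.00725), and without both replicate 3 libraries it was 1.30 (limma adjusted p = 0.00478), so that library alone moved the change by over 1.5 times. In the authors' deposited table the log2 change was 1.42 (SE 0.44) with an adjusted p of 0.0109.

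Hbegf (ENSMUSG00000024486, chr18:36504927-36515805, minus strand) encodes heparin-binding EGF-like growth factor, a ligand of EGFR and ERBB4, and was the most abundant ligand per exon length. It had 1689, 1781 and 1434 normalized counts in FGF13cko and 997, 1166 and 389 in CTRL. The groups did not overlap, and CTRL 3 was again the lowest library. The means were 1635 ± 180 in FGF13cko and 851 ± 409 in CTRL, a 1.92-fold ratio. The log2 change was 1.08 (SE 0.37, 95% interval 0.22 to 1.95) and missed the threshold (limma adjusted p = 0.0908), while the replicate block gave 0.00704. Without CTRL 3 it was 0.59 and passed (limma adjusted p = 0.0172), and without both replicate 3 libraries 0.69 (limma adjusted p = 0.000952). The authors' deposited table lists 0.84 (SE 0.31) with an adjusted p of 0.0466.

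For these ligands, the same-numbered pairs gave log2 differences, FGF13cko minus CTRL, of 0.46, 1.02 and 0.89 for Nrg1, of 1.16, 1.44 and 4.64 for Areg, and of 0.76, 0.61 and 1.88 for Hbegf. The third pair was by far the widest for Areg and Hbegf, through the low values of CTRL 3. Of all tested genes, 32.4% were higher in FGF13cko in all 3 pairs.

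**Figure D3:**
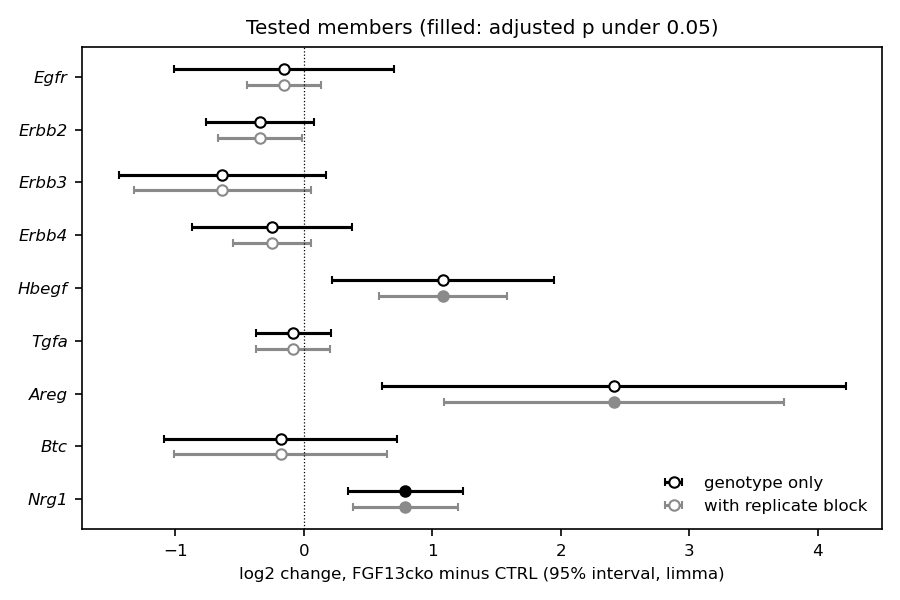
Log2 change of the 9 tested members, FGF13cko minus CTRL, with 95% intervals from limma, in the fit with genotype alone (black) and with the replicate block (grey), filled where the adjusted p is under 0.05. Only Nrg1 is filled in black, and Hbegf, Areg and Nrg1 are filled in grey.

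**Figure D4:**
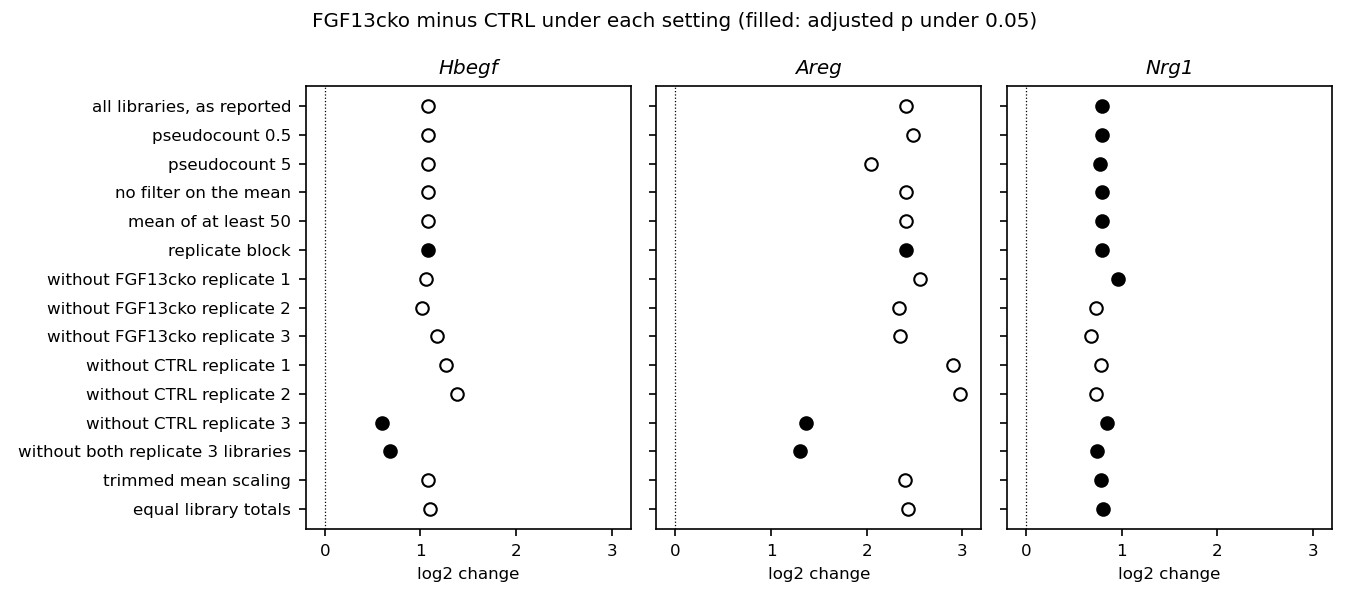
Log2 change of Hbegf, Areg and Nrg1 under each of 15 settings, filled where the limma adjusted p is under 0.05. Every point lies above 0, which leaving out a library or changing the pseudocount could not alter, since the groups do not overlap. The filters and the block leave the log2 change as it is. Nrg1 passes in 11 settings and Areg and Hbegf in 3 each, those with the block or without CTRL 3.

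Tgfa, which encodes TGF-alpha, was the steadiest member. It had 758, 794 and 813 normalized counts in FGF13cko and 841, 829 and 830 in CTRL. All FGF13cko libraries lay below all CTRL libraries, by little beside their means of 788 ± 27.6 in FGF13cko and 834 ± 6.63 in CTRL. The change of -0.08 on the log2 scale (SE 0.13, 95% interval -0.37 to 0.21) did not pass (adjusted p = 0.693 in limma).

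Btc, which encodes betacellulin, had 34.4, 34.7 and 30.9 normalized counts in FGF13cko and 27.5, 28.2 and 69.8 in CTRL. FGF13cko lay between the low CTRL libraries and CTRL 3, which was the highest. The log2 change of -0.18 (SE 0.39, limma adjusted p = 0.788) turned to 0.25 without CTRL 3 and to 0.30 without both replicate 3 libraries, and neither passed.

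Ereg, which encodes epiregulin, fell below the mean of 10 needed to enter the main fit. Without that filter 1 of 10 members passed, namely Nrg1 (limma adjusted p = 0.0459), so Ereg did not. It had 7, 3 and 6 reads in FGF13cko and 1, 2 and 1 in CTRL. Summed, these are 16 reads in FGF13cko and 4 in CTRL, a ratio of 3.88 scaled by total reads, with an exact 95% interval of 1.25 to 15.9 that covers counting error only. Its exons share 141 bases with the antisense gene Gm19610.

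Ereg, Areg and Btc lie in 1 stretch of chromosome 5 with the related ligand gene Epgn (epigen). The stretch spans 375531 bases, and these 4 are the protein-coding genes of the table within it. Their levels differed: per kb of exon, the mean level over the 6 libraries was 47.4 normalized counts for Areg, 8.32 for Btc, 3.83 for Epgn and 0.792 for Ereg. Areg and Ereg were both higher in every FGF13cko library than in any CTRL library. Of all tested genes, which leave out Ereg, 20.6% were. For Ereg the nearest libraries were FGF13cko 2 with 3 reads and CTRL 2 with 2. The read ratios were 3.85 (exact 95% counting interval 2.96 to 5.07) for Areg and the 3.88 above for Ereg. The Areg interval pools libraries and covers counting error only, while CTRL 1, 2 and 3 had 32, 36 and 3 reads. CTRL 3 was the highest library for Btc and the lowest for Areg. Epgn had 22 reads in FGF13cko and 20 in CTRL, a ratio of 1.07 (exact 95% counting interval 0.555 to 2.06).

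Summed per kb of exon, the 6 ligands reached 563, 618 and 551 in FGF13cko 1, 2 and 3 and 388, 423 and 247 in CTRL 1, 2 and 3, without overlap. Hbegf was the largest part in FGF13cko, at 62.1%, 59.6% and 53.9%, and in CTRL 1 and 2, at 53.1% and 57.0%, but not in CTRL 3 (32.5%), where Tgfa held 51.7%. The summed level of the 4 receptors overlapped, at 440 to 835 in FGF13cko and 514 to 873 in CTRL.

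Some marker genes of other cell types were, like Nrg1, Areg and Hbegf, higher in FGF13cko. Of all tested genes, 7.55% were higher and 7.08% lower in the fit with genotype alone. With the block 16.2% were higher and 13.9% lower, and without both replicate 3 libraries 18.9% and 18.4%. The counts below are to be read beside these shares, and no list was tested. Young neuron markers had 7 of 12 members higher and none lower (9 higher both with the block and without both replicate 3 libraries), with a summed level of 39158 to 52295 normalized counts in FGF13cko and 21540 to 30072 in CTRL. Microglia and macrophage markers had 3 of 8 tested members higher (12 in the list, none of them at 0 throughout). The block gave 5 higher and leaving out both replicate 3 libraries 7, with sums of 391 to 571 in FGF13cko and 191 to 201 in CTRL. Cd68 was the largest part of that sum in every library, at 222, 206 and 182 in FGF13cko and 80.4, 90.6 and 67.8 in CTRL. The groups overlapped for Aif1, Cx3cr1, P2ry12, Itgam and C1qa, and not for the others of the list. Endothelial markers had 2 of 7 tested members higher (4 with the block and 4 without both replicate 3 libraries), with sums of 315 to 536 in FGF13cko and 151 to 265 in CTRL. Mural and fibroblast markers had 3 of 6 tested members higher (4 higher and 1 lower both with the block and without both replicate 3 libraries), with sums of 904 to 2489 in FGF13cko and 285 to 427 in CTRL. Rgs5, a pericyte gene, made up most of that sum in FGF13cko, at 659, 798 and 2267, against 109, 142 and 310.5 in CTRL. Col1a1, a collagen gene, averaged 31.1 in FGF13cko and 72.5 in CTRL, and was lower with the block (adjusted p = 0.0185 in limma, 0.129 without it). Ependymal markers had 3 of 4 tested members higher, and 3 in both of those fits too, with sums of 1355 to 1575 in FGF13cko and 572 to 829 in CTRL, and Tmem212 at 0 in all 6 libraries. Astrocyte markers had 1 of 8 higher (2 with the block, 4 higher and 1 lower without both replicate 3 libraries), and their sums overlapped, at 40167 to 66328 in FGF13cko and 36993 to 66830 in CTRL. The part of these cells in the levels of Nrg1, Areg and Hbegf was not tested.

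Genes around the receptors were described from 4 lists. In all, 6 of 57 tested genes passed, 3 higher and 3 lower, a share below the 14.6% of all tested genes. With the replicate block 17 passed, and 19 without both replicate 3 libraries, where 30.0% and 37.3% of all genes did.

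Among the other ligands, of which 4 of 5 could be tested, none passed in the fit with genotype alone (median log2 change 0.20). Nrg3, a neuregulin that binds ERBB4, came nearest, with 84.6, 153 and 244 normalized counts in FGF13cko and 46.8, 73.5 and 57.6 in CTRL. The groups did not overlap, the FGF13cko libraries were spread widely, and the log2 change was 1.32 (SE 0.39, limma adjusted p = 0.0565; 0.00833 with the replicate block). It also passed without FGF13cko 1 (1.71, limma adjusted p = 0.0290) and without both replicate 3 libraries (0.95, limma adjusted p = 0.0425). For Nrg3 the authors' deposited table lists 1.23 (SE 0.35) with an adjusted p of 0.00456, and for Egf, Epgn, Nrg2 and Nrg4 adjusted p of 0.382 to 0.972. Egf itself had 61.9 to 90.5 normalized counts in FGF13cko and 81.4 to 122 in CTRL and did not pass (limma adjusted p = 0.294).

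Of 13 tested genes of ligand release, 2 rose and none fell (median 0.18). Bace2, a membrane aspartyl protease related to the neuregulin-cleaving enzyme Bace1, had 171, 167 and 122 normalized counts in FGF13cko and 48.8, 36.2 and 19.2 in CTRL. Its log2 change was 2.19 (SE 0.36, limma adjusted p = 0.0091), and it missed the threshold only without FGF13cko 2 (0.0570). Rhbdl2, a rhomboid protease whose human form cuts EGF, had 141, 130 and 179 in FGF13cko and 58.0, 47.3 and 78.9 in CTRL, with no overlap and a fitted change of 1.29 (SE 0.26, adjusted p = 0.0174 in limma). It missed the threshold without FGF13cko 2, FGF13cko 3 or CTRL 1 (limma adjusted p = 0.0658 to 0.0674). The main sheddases Adam10 and Adam17, which free most EGFR ligands, did not pass, with log2 changes of 0.42 (limma adjusted p = 0.191; 0.0270 with the replicate block) for Adam10 and -0.03 (limma adjusted p = 0.928) for Adam17, whose exons share 311 bases with Iah1 on the other strand.

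Of 20 receptor adaptors and signal carriers, 1 rose and 1 fell (median 0.03). Nck2, an adaptor that binds phosphorylated receptors, had 1587, 1581 and 1617 normalized counts in FGF13cko and 1210, 1109 and 919 in CTRL, with a fitted change of 0.57 (SE 0.15, adjusted p = 0.0370 in limma). Stat5b, a transcription factor activated by receptor signalling, had 1035, 929 and 788 in FGF13cko and 1669, 1685 and 1290 in CTRL, with a fitted change of -0.75 (SE 0.17, adjusted p = 0.0256 in limma). The Nck2 call held without CTRL 3 but was lost when each of the other 5 libraries was omitted (adjusted p = 0.0712 to 0.139 in limma), and Stat5b missed the threshold without FGF13cko 2, FGF13cko 3, CTRL 1 or CTRL 2 (0.0780 to 0.105). The central adaptors Grb2 and Shc1 did not pass, with log2 changes of 0.21 for Grb2 and 0.05 for Shc1 (limma adjusted p = 0.307 and 0.851).

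Of 20 tested genes of receptor restraint and turnover, none rose and 2 fell (median 0.13). Tnk2, a kinase that takes part in EGFR endocytosis and degradation, had 3215, 3202 and 2659 normalized counts in FGF13cko and 6099, 4720 and 5607 in CTRL. Its log2 change was -0.85 (SE 0.16, limma adjusted p = 0.0139), and it missed the threshold without FGF13cko 2, FGF13cko 3 or CTRL 1 (0.0564 to 0.0654). Its exons share 71 bases with the antisense gene Tnk2os, which had a mean of 78.2. Lrig3, a membrane protein of the LRIG family, had 120.0, 97.4 and 104 in FGF13cko and 191, 157 and 249 in CTRL, with a fitted change of -0.87 (SE 0.22, adjusted p = 0.0393 in limma) that missed the threshold without any FGF13cko library or CTRL 1 (0.0720 to 0.154). Its relative Lrig1, which restrains EGFR and was abundant, was at 10410 to 14464 in FGF13cko and 8325 to 13268 in CTRL, and Errfi1, an inhibitor induced by the receptor, at 388 to 477 in FGF13cko and 248 to 451 in CTRL. Neither passed (limma adjusted p = 0.621 and 0.527).

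**Figure D5:**
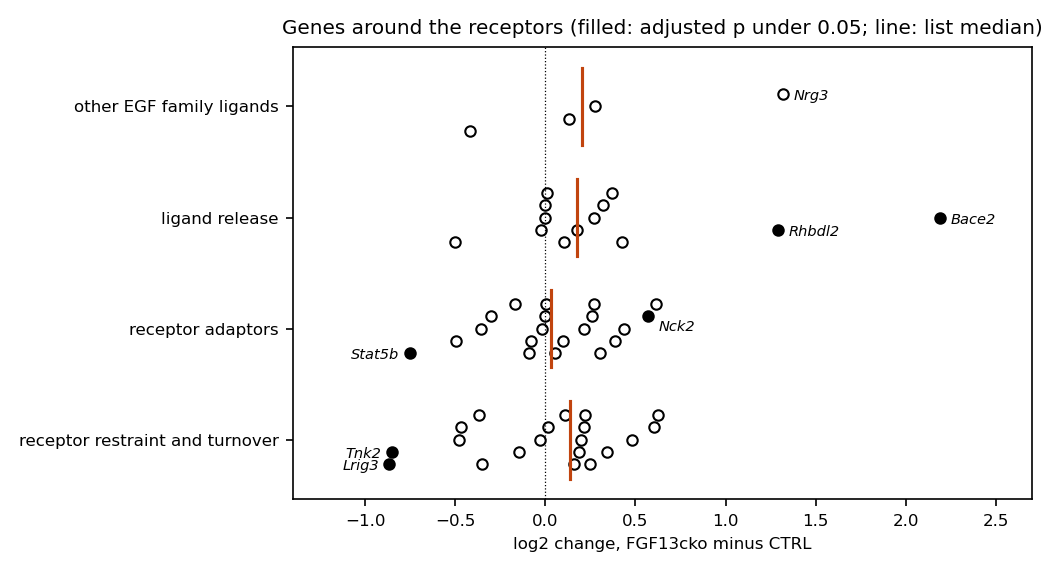
Log2 change, FGF13cko minus CTRL, of the tested genes in 4 lists around the receptors, filled where the limma adjusted p is under 0.05, with the median of each list as a line. The medians lie between 0.03 and 0.20, and the 6 filled genes and Nrg3 are named.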

How the data were processed

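Total RNA was turned into libraries with a NEBNext Ultra kit, per the labels' protocols, a kind that does not mark strand. The submitters' processing notes list STAR, DESeq2 and mm10 with no versions, and neither annotation nor counter is given in the sources used here. The authors deposited 1 normalized expression signal per gene and library. In each library 100% of these values were whole multiples of 1 step within 0.01 of a read, as gene counts divided by a size factor would be, and reads in this text are values divided by that step. The authors deposited beside it a log2 fold change, its standard error and Wald statistic (each a score), and a p-value and adjusted p-value. Their log2 changes come from a fit other than limma and are another measure of the same values. For Areg they gave 1.42 where limma gave 2.41.

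Genes with a mean of at least 10 entered limma 3.58.1 under R 4.3.3 as log2(value + 1), in a model of genotype alone with a trend on the mean, 2-sided, with Benjamini-Hochberg adjustment over all 16852 tested genes and a threshold of 0.05. Fold changes are on that log2 scale, and the added 1 draws those of low genes toward 0. A single very low value can still widen them. For Areg the log2 change was 2.41 with CTRL 3 and 1.37 without it. Ratios of means are on the linear scale. The fit was tested on simulated data. GENCODE M21 (GRCm38, the assembly of mm10) gave 1-based coordinates and exon lengths for 54495 of 54532 gene IDs. Count tests were not run. The authors' values for the members and the other EGF family ligands are given instead. Alternatives were the pseudocount, the filter, other scalings, each library left out and a replicate block.

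Same-numbered libraries deviated together from their group means (r = 0.36, 0.20 and 0.54 for replicates 1, 2 and 3), so the block is given where it changes a call on a member or a marker count. This pairing comes from the data, since no label says what a number marks, and CTRL 2 correlated more with FGF13cko 1 (0.33) than with FGF13cko 2.

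Members and lists were chosen with earlier results of these data known. Named genes are the 10 members, Fgf13, up to 3 genes that rose and 3 that fell in each list around the receptors (or the one with the smallest adjusted p), and the 3 genes most like each receptor (mean of at least 50); Egf, Adam10, Adam17, Grb2, Shc1, Lrig1, Errfi1 and the marker genes were named in addition, after their values were seen. Of 14 genes of ligand release 13 matched a row. Hgs, 1 of 21 genes of restraint and turnover, fell below the filter on the mean and is uncertain, since overlapping gene IDs carry the name. The summary of 1 marker list is not reported here.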

Additional observations from a re-analysis of the deposited data

How the results depend on the processing

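Directions of Erbb2, Erbb3, Erbb4, Hbegf, Tgfa, Areg and Nrg1 held under every alternative that could fit them. For Hbegf, Tgfa, Areg and Nrg1, whose groups do not overlap, leaving out libraries or changing the pseudocount could not have turned the direction. The filters and the block leave a log2 change as it is, so they do not test direction. The change of Egfr ranged from -0.49 to 0.20 with 1 library left out, and that of Btc from -0.41 to 0.25, with 0.30 without both replicate 3 libraries; neither passed in any fit. The change of Erbb2 was -0.45 to -0.22, of Erbb3 -0.88 to -0.40 and of Erbb4 -0.49 to -0.04 with 1 library left out. Erbb3 and Btc have a mean under 50 and no value with that filter. With 1 library left out, members past the threshold numbered 0 to 3, pathway genes 0 to 14 and all genes 469 to 4373, and the log2 change of Fgf13 was -1.15 to -0.53. The replicate block gave 3 members, 17 pathway genes and 5064 genes, and it changed no other call on a member than those of Areg and Hbegf. Without both replicate 3 libraries there were 3 members, 19 pathway genes and 6145 genes, and Fgf13 was at -1.35. Nck2 and Lrig3 also missed the threshold without the filter on the mean (limma adjusted p = 0.0608 and 0.0576), and Lrig3 with equal library totals (0.0525). Pseudocounts of 0.5 and 5, other filters and both added scalings, chosen after seeing the data, moved no count by over 1.5 times. The edgeR and DESeq2 alternatives, and TMM factors on read counts, were not run. Among the added scalings was a trimmed mean scaling of the deposited values. Few reads limit Ereg, Epgn and the CTRL 3 value of Areg, and 3 libraries per group leave wide intervals for the receptors.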
